A study of Mus musculus with 20 samples.

Results

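The measurements described here are those of 6 genes for transcription factors that steer T cells and innate lymphocytes into effector lineages, *Tbx21* (T-bet), *Eomes* (Eomesodermin), *Zeb2*, *Prdm1* (Blimp-1), *Nfil3* (E4BP4) and *Zbtb16* (PLZF). They were chosen by name from the 25246 genes listed in the single-cell count tables, of which 25042 had a transcript in a kept cell. Thymic intraepithelial lymphocyte precursors (IELPs), which are CD4-CD8- thymocytes with an αβ T cell receptor, were sorted one per well and sequenced with CEL-Seq2, a method that counts transcripts from their 3′ ends with unique molecular identifiers (UMIs). The control was 1 wild-type TBGR mouse of 4 weeks, a strain that reports T-bet with ZsGreen, and its cells were sorted into a CD122-T-bet- gate, a CD122+T-bet- gate and the CD122+ gates T-bet int and T-bet high, with 2 libraries each. A second set, of 2 weeks of age and with the same reporter, set a TBGR C-myc fl/fl mouse beside a TBGR C-myc D/D Cd4 mouse. The C-myc fl/fl cells filled 4 libraries with both T-bet- populations and 4 with both T-bet+ populations, and the C-myc D/D Cd4 cells, in which Cre driven by *Cd4* removes floxed *C-myc*, filled 2 libraries of each T-bet- population. Each genotype stands for 1 mouse according to the design text, so no test between populations or genotypes was made, and intervals cover counting error only.

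T-bet and Eomesodermin are related T-box factors that share many targets in cytotoxic lymphocytes, among them the β chain of the interleukin-2 and interleukin-15 receptor (CD122), and T-bet is required for natural intraepithelial lymphocytes. Zeb2 acts with T-bet in terminal effector differentiation, Blimp-1 represses memory programs, and E4BP4 is needed for natural killer (NK) cells and innate lymphoid cells. PLZF directs the innate program of NKT cells, which includes rapid release of interleukin-4 and interleukin-13.

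Of 1920 wells with a sorted cell, 1413 held at least 2000 transcripts after mitochondrial genes and spike-ins were set aside, and these were used. The median per library and population was 3298 to 7809.5 transcripts per cell, over 22 to 94 cells, and the sums lay between 94268 and 775264 transcripts. Cell barcodes were shared, each by up to 10 libraries. The second TBGR CD122+T-bet high library stood apart: it kept 55 of 96 wells, and 4.17% of its transcripts lay in barcodes without a cell, against 0.215% to 0.725% in the other libraries. *Il2rb*, the gene for CD122, was found in 0% to 9.68% of cells per library in the CD122- gates and in 27.3% to 92.4% in the CD122+ gates. Of the αβ T cell identity genes, 7 of 7 listed were detected in every population. Markers of other cells were found too. *Foxp3*, a gene of regulatory T cells, was in 22.6% of TBGR CD122+T-bet- cells and in 0% to 5.17% of cells of any other population. CPM stands for transcripts scaled to a sum of 1000000. The sum over 4 regulatory T cell genes, *Foxp3* among them, was highest in C-myc D/D Cd4 CD122+T-bet- cells, at 191 CPM. It was 146 CPM in the TBGR and 81.9 CPM in the C-myc fl/fl cells of that gate. *Trdc*, a gene of γδ T cells, was in 0% of TBGR CD122+T-bet high cells and up to 46.1% of C-myc D/D Cd4 CD122-T-bet- cells. The sum over 5 listed γδ T cell genes went the other way between these populations. It was highest in the TBGR CD122+T-bet high cells, at 1365 CPM, although *Trdc* and *Sox13* were at 0 there. It was 1006 CPM in the C-myc D/D Cd4 CD122-T-bet- cells and lowest, at 405 CPM, in the C-myc fl/fl CD122+T-bet- cells. The part of regulatory and γδ T cells in the members' values was not tested. *Klrb1c*, the gene for NK1.1, was present in 84.4% of TBGR CD122+T-bet high cells and in 24.1% of those of the C-myc fl/fl mouse, although the study's methods describe an NK1.1- sort and the design text an NK1.1+ sort. *Ncr1*, which marks NK cells, was at 0 in 9 of 10 populations and had 3 transcripts in the C-myc fl/fl CD122+T-bet high cells. The sum over 6 genes of NK and innate lymphoid cells, *Ncr1*, *Klrb1c* and *Eomes* among them, ran from 196 to 1067 CPM. It was highest in the TBGR CD122+T-bet high cells and was 748 CPM in those of the C-myc fl/fl mouse.

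The targeted gene was counted first. *Myc* stood at 44.5 and 9.96 CPM (transcripts scaled to a sum of 1000000) in the C-myc D/D Cd4 CD122+T-bet- libraries, against 73.8, 125, 135 and 10.6 CPM in the C-myc fl/fl libraries of the same gate. In CD122-T-bet- cells it was 16.7 and 30.0 CPM after deletion and 63.0, 14.0, 62.3 and 24.4 CPM without it. Of the C-myc fl/fl CD122+T-bet- libraries 3 of 4 lay above both deleted ones, and the fourth, with a single *Myc* transcript, did not. The pooled log2 ratio of deleted to floxed cells was -1.95 (95% interval -2.81 to -1.22) in the CD122+T-bet- gate and -0.74 (-1.65 to 0.09) in the CD122-T-bet- gate. *Myc* transcripts remained in the deleted cells, and which exons the allele removes is not given in the sources used here. Cells are called deleted by the genotype of the mouse, and whether each had lost the allele was not tested.

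*Tbx21*, on chromosome 11 from 97098071 to 97115331 on the minus strand of GRCm38, followed the reporter gates. It had no transcript in either TBGR CD122-T-bet- library and 2.58 and 0 CPM in the CD122+T-bet- libraries. It reached 40.9 and 55.3 CPM in the CD122+T-bet int libraries and 214 and 64.3 CPM in the CD122+T-bet high libraries. The T-bet int and T-bet high libraries did not overlap each other or the T-bet- ones, and the high libraries differed from each other by more than the gap between the gates. Over all mice, 236 of 246 *Tbx21* transcripts lay in the T-bet int and high gates, which held 39.2% of all transcripts. The gates were set on ZsGreen, so this order is a check of the sort, and whether the reporter transcript adds reads to *Tbx21* is not given in the sources used here.

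The promoters of the pair of T-box genes are shown because, from int to high cells of the TBGR mouse, one gene was higher and the other lower, as described below. They run from 250 bases before to 50 bases after the start site in RefSeq on GRCm38.p6, and capitals mark CANNTG, the E-box core to which basic helix-loop-helix factors such as C-Myc bind, read on both strands.
Tbx21, chr11:97115282-97115581, minus strand: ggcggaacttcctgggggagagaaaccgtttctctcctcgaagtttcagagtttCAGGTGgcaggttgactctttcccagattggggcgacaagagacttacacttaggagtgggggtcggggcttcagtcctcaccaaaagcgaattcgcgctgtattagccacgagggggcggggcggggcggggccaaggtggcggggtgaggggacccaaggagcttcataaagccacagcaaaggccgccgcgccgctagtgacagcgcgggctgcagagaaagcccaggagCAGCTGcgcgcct
Eomes, chr9:118477939-118478238, plus strand: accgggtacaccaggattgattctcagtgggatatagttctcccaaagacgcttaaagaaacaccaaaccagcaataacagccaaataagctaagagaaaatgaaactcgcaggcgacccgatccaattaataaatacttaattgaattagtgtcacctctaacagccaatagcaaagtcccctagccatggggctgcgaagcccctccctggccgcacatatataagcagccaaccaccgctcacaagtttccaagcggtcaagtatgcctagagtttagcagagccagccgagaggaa
The *Tbx21* window held 2 matches and the *Eomes* window none, and 72.3% of 32851 promoters in the same table held at least 1. The C-Myc E-box CACGTG, itself a form of CANNTG and found in 7.15% of all promoters, and the T-box element GGTGTGA (reverse complement TCACACC), found in 3.98%, had no match in the windows of the 5 members with an entry. *Zbtb16* had no entry. The *Tbx21* window had a GC content of 62.0% and the *Eomes* window of 47.3%.

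Between the T-bet- and int gates (both CD122+) of the TBGR mouse, *Tbx21* rose from 2 to 62 transcripts, a log2 ratio of 4.83 (3.23 to 8.22). From int to high it stood at 48.0 CPM (36.8 to 61.5) against 165 CPM (136 to 197), a log2 ratio of 1.77 (1.32 to 2.25), and 1.99 above the all-gene median of -0.22. That value rested on the first high library: it was 0.46 without it and 2.15 without the second. The C-myc fl/fl libraries hold int and high cells side by side, so library and gate can be told apart there. Their int cells had 17.2, 23.4, 12.4 and 19.0 CPM and their high cells 75.6, 55.1, 71.5 and 25.03 CPM in the same order. The high cells were above the int cells in 4 of 4 libraries and above every int library, with log2 ratios of 0.40 to 2.26 within libraries and 1.65 (0.81 to 2.60) when pooled.

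**Figure D1:**
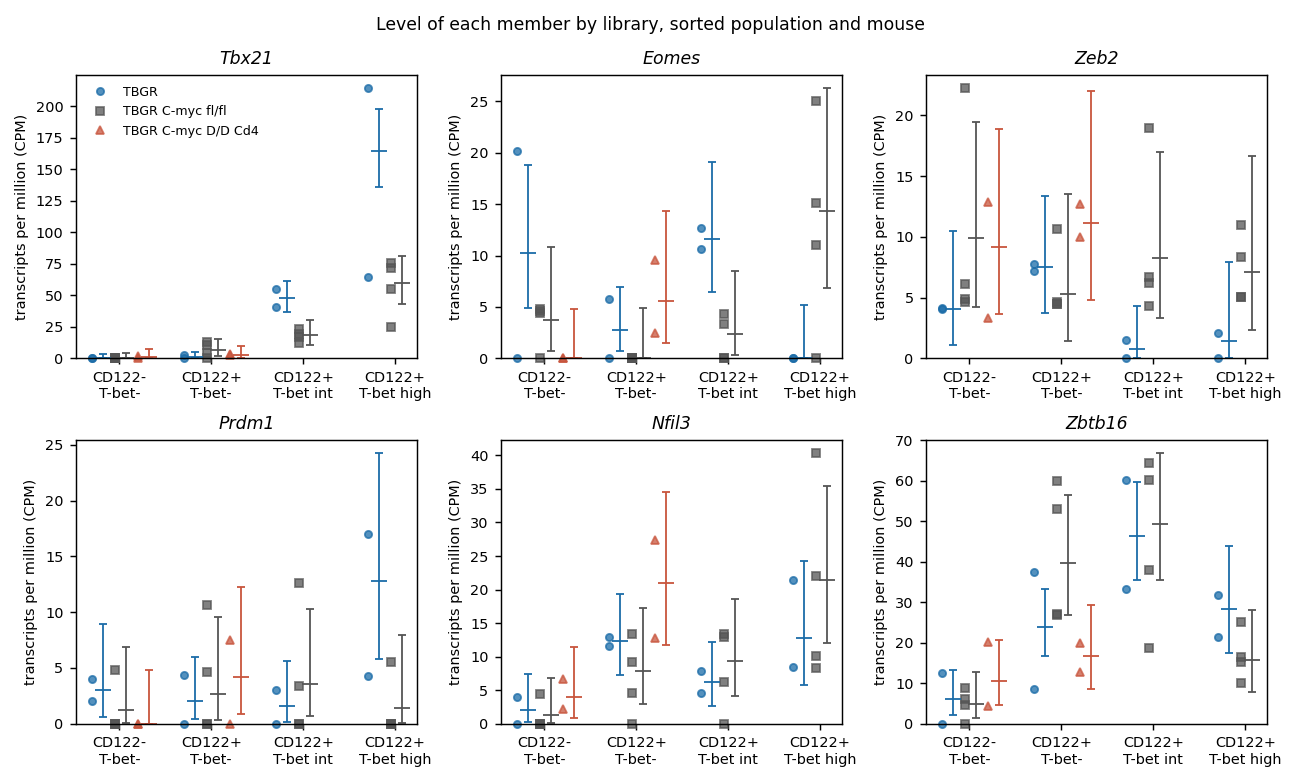
Level of the 6 genes in CPM (y axis, one linear scale per gene) by sorted population (x axis). Points are libraries, coloured by mouse, and the dash with its bar beside them is the pooled level with its exact Poisson 95% interval. *Tbx21* climbs from 0 in TBGR CD122-T-bet- cells to 165 CPM in CD122+T-bet high cells, *Zbtb16* is highest in CD122+T-bet int cells, and *Eomes*, *Zeb2*, *Prdm1* and *Nfil3* reach at most 40.3 CPM in a library.

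Most cells of the T-bet gates nevertheless had no *Tbx21* transcript. It was found in 42.2% (exact binomial 95% interval 34.1 to 50.6) of 147 TBGR CD122+T-bet high cells and in 23.4% (17.3 to 30.5) of 171 int cells. With every cell thinned to 2000 transcripts the shares were 26.5% and 7.02%. For the C-myc fl/fl mouse they were 27.7% of 112 high cells and 12.1% of 116 int cells, or 11.6% and 3.45% after thinning. Of the 155 cells with *Tbx21*, 105 held 1 transcript, 28 held 2 and 22 held 3 or more, up to 8. No *Tbx21* was seen in 174 TBGR and 120 C-myc fl/fl CD122-T-bet- cells, which allows a share of cells with a detected transcript, not of cells that express the gene, of up to 1.72% and 2.50%. Fewer cells with the gene and less RNA per cell cannot be told apart at this depth.

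**Figure D2:**
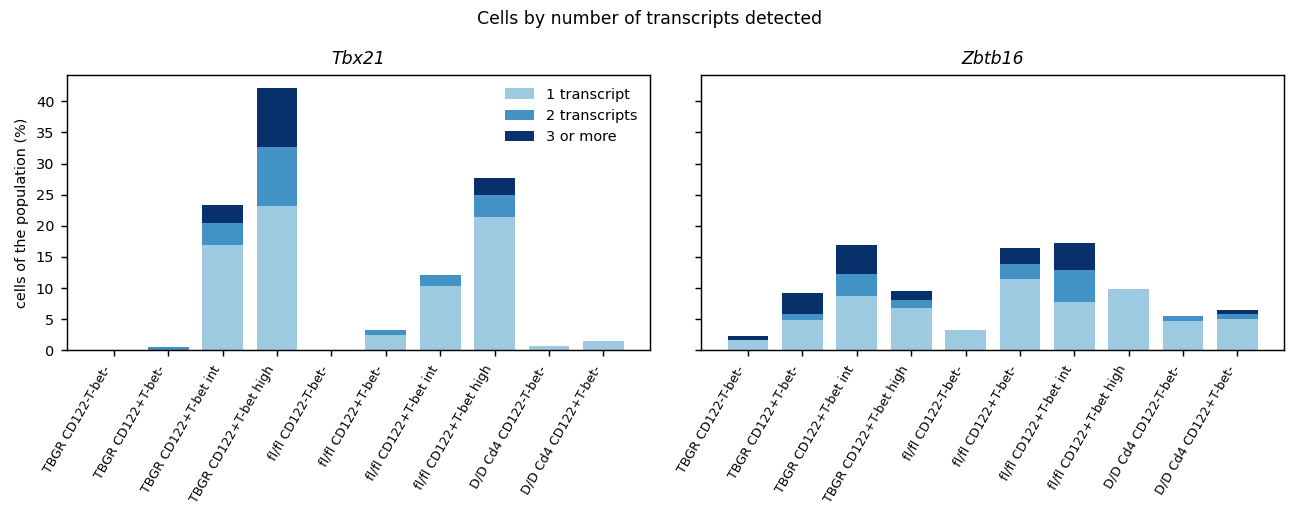
Share of cells (y axis, percent of the population's cells) with 1, 2 or at least 3 transcripts of *Tbx21* (left) and *Zbtb16* (right) for each mouse and population (x axis). The *Tbx21* bar reaches 42.2% in TBGR CD122+T-bet high cells and the *Zbtb16* bar no more than 17.2%, in C-myc fl/fl CD122+T-bet int cells.

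The 5 genes whose pattern was most like that of *Tbx21* over the 28 libraries split by population were *Cxcr3* (Pearson r of 0.94 on log2 of CPM + 10), a chemokine receptor of type 1 effector cells, *Klrd1* (0.93), which encodes CD94, *Il18rap* (0.92), a chain of the interleukin-18 receptor, *Klra7* (0.92), an NK receptor of the Ly49 family, and *Ly6c2* (0.91). These 28 points share 3 mice and the sort, so the values are a description. By rank correlation 2 of these 5 were again among the first 5, and in the 16 C-myc fl/fl points alone 1 was. The other members were less alike to *Tbx21*, with r from -0.34 for *Zeb2* to 0.46 for *Nfil3*.

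Genes known to be linked to T-bet were taken as a list of 24, which, like the other lists, was chosen with earlier results of these data known. From int to high in the TBGR mouse, 13 had at least 100 transcripts in either population, and 8 were higher and 1 lower by 2-fold or more with no overlap of libraries. Among all 2387 genes of that depth, 4.82% were higher and 11.1% lower, and the median log2 ratio was 1.52 for the list and -0.22 for all. *Klrc1*, which encodes NKG2A, had the largest ratio (6.99, from 2.32 to 343 CPM), followed by *Klrk1* (6.10), *Gzma* (6.05) and *Gzmb* (5.86), the last pair encoding granzymes. *S1pr1*, the receptor for thymic exit, was lower (-4.10, from 183 to 9.93 CPM). In the C-myc fl/fl libraries, 8 list genes had that depth and 6 were higher and 0 lower, against 2.89% higher of 1108 genes, with a list median of 2.92 and a median of all genes of -0.22. *Ccl5*, *Gzma*, *Klrk1* and *Klrd1* led there, with log2 ratios of 3.65, 3.61, 3.14 and 3.05. *Klrb1c* moved with these genes, from 39.5 to 563 CPM in the TBGR mouse and from 9.41 to 81.5 CPM in the C-myc fl/fl mouse, and its part in the result was not tested.

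A list of 27 transcription factors of the effector and memory network had more lower than higher calls. From int to high, 3 of 14 were higher and 6 lower in the TBGR mouse, where 4.82% of all genes were higher and 11.1% lower. For the C-myc fl/fl mouse it was 2 of 11 higher and 5 lower, beside 2.89% and 2.17% of all genes. *Id2* (log2 ratios of 1.92 and 1.44) and *Hopx* (1.72 and 1.58) were higher in both mice. *Id3* (-5.21 and -1.78), *Tcf7* (-3.02 and -1.62) and *Tox* (-1.99 and -1.64), factors of early T cells and progenitors, were lower in both. The list of 24 T-bet-linked genes, not the factors, was also compared between cells with and without a *Tbx21* transcript. Within the T-bet high cells, 19 of the 24 had at least 10 transcripts. Of these, 2 were 2-fold higher and 0 lower in cells with *Tbx21*, beside 7.08% and 4.74% of 9001 genes. Within the int cells it was 0 higher and 3 lower of 16 T-bet-linked genes, beside 4.29% and 7.48% of 9991 genes.

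*Eomes* (chromosome 9, 118478212 to 118486132, plus strand) was found in 33 of 1413 cells, with 48 transcripts. In the TBGR mouse its CD122-T-bet- libraries had 0 and 20.1 CPM and its CD122+T-bet- libraries 0 and 5.77 CPM. Its CD122+T-bet int libraries had 10.6 and 12.6 CPM, and both CD122+T-bet high libraries had no transcript. The int libraries lay above both high libraries, at least 2.73-fold if the limit of 3 transcripts is taken for the high cells. In the C-myc fl/fl libraries the int cells had 4.29, 3.35, 0 and 0 CPM and the high cells 15.1, 25.1, 11.01 and 0 CPM. There the high cells were above in 3 of 4 libraries and both were at 0 in the fourth, with a pooled log2 ratio of 2.35 (0.37 to 5.83) over 12 transcripts. The ratio of high to int thus had opposite signs in the mouse of 4 weeks and the mouse of 2 weeks. Age, mouse and library differ between them and cannot be told apart, and the difference itself was not tested.

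The *Eomes* transcripts of the first gate came from 4 cells of 1 library, the highest with 5. For int over CD122+T-bet- in the TBGR mouse the log2 ratio was 1.97 (0.44 to 4.14), and it was 0.89 without the first CD122+T-bet- library. Among T-bet int and high cells of the TBGR and C-myc fl/fl mice, 22 held *Eomes*, 524 did not, and those with it had 2 *Tbx21* transcripts (12.1 CPM), while the other cells of the same libraries and gates had 110 (49.1 CPM). Within library and gate, the pooled log2 ratio of *Tbx21* was -2.18, and *Tbx21* was lower in 7 of 7 units with such cells. With 22 cells spread over 7 units, a sparse gene is easily at 0 in a unit, so counts of units lower decide little. *Gzma* was lower in 6 of 7 units although its pooled ratio was 0.60. Of 18 T-bet-linked genes with at least 10 transcripts, 6 were 2-fold lower and 2 were 2-fold higher in the cells with *Eomes*. *Gzmb*, 1 of the lower genes, was lower in 7 of 7 units (-2.07). *Klf3*, a Krüppel-like factor named after its values were seen, was higher in 7 of 7 (1.72). The higher genes were *S1pr1*, with a ratio of 1.09, and *Ccl5*, with a ratio of 1.44. For *Ccl5* it was 0.91 without 1 cell of 63 *Ccl5* transcripts. Among 10178 genes of at least 10 transcripts 25.8% were 2-fold lower and 6.32% 2-fold higher in these 22 cells.

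**Figure D3:**
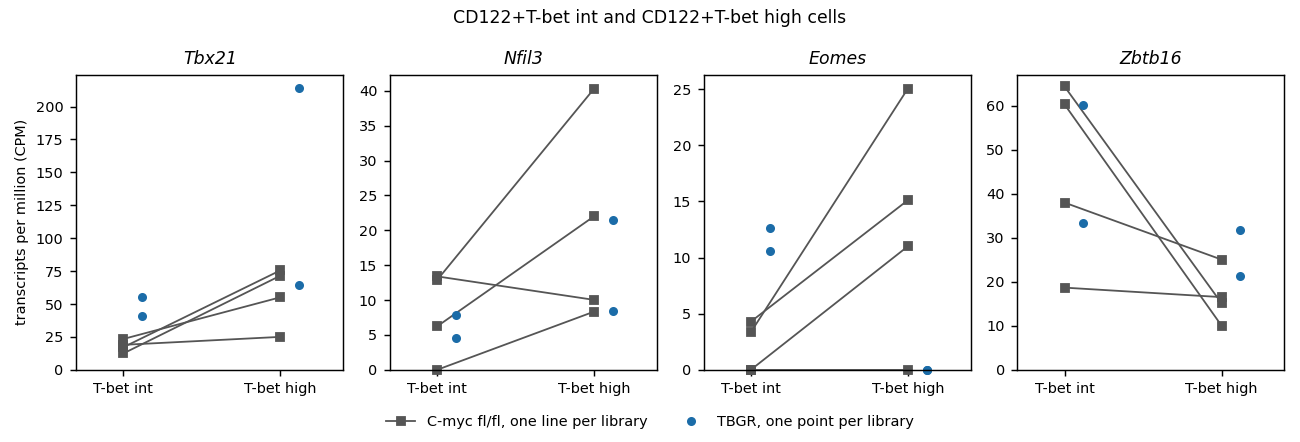
Level in CPM (y axis) in CD122+ cells of the int gate and of the high gate (x axis). Lines with squares join the gates of each C-myc fl/fl library and round points are TBGR libraries. *Tbx21* goes up and *Zbtb16* down in 4 of 4 C-myc fl/fl libraries, and *Eomes* goes up in 3 of them while both TBGR high libraries lie at 0.

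*Prdm1* (chromosome 10, 44437177 to 44528501, minus strand) was the least detected member, with 27 transcripts in 24 cells. Its TBGR CD122+T-bet high libraries had 17.0 and 4.28 CPM, and the 6 other TBGR libraries 0 to 4.32 CPM. From int to high the log2 ratio was 2.80 (0.77 to 6.29) on 9 and 2 transcripts, and the libraries did not overlap. Of the C-myc fl/fl high libraries 1 of 4 held a *Prdm1* transcript, against 2 of 4 int libraries, and the pooled ratio was -0.94 (-7.02 to 2.34). With under 10 transcripts in every population, no order of its levels could be read.

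*Zeb2* (chromosome 2, 44983632 to 45117395, minus strand) was found in 53 cells, 51 of them with 1 transcript. In the TBGR mouse its levels were 4.13 and 4.03 CPM in the CD122-T-bet- libraries, 7.74 and 7.21 CPM in the CD122+T-bet- libraries, 1.52 and 0 CPM in the int libraries and 2.12 and 0 CPM in the high libraries. From CD122+T-bet- to int it was lower, with a log2 ratio of -2.75 (-8.70 to -0.49) on 11 and 1 transcripts. Across the C-myc fl/fl mouse *Zeb2* stood at 4.29 to 22.2 CPM in 16 units with no such step, and its pooled levels were 9.88, 5.28, 8.23 and 7.15 CPM in the order of the gates. *Zeb2* was the only member with more than 1 transcript in barcodes without a cell, 5 in all, which is 97.9 CPM of the transcripts there (31.8 to 228) against 6.19 CPM in cells. In the 2 TBGR CD122-T-bet- libraries these barcodes held 4 *Zeb2* transcripts, as many as the sorted cells, and no level above background can be read for that gate.

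*Nfil3* (chromosome 13, 52967209 to 52981073, minus strand) was counted mainly in CD122+ gates. Only 6 of its 85 transcripts lay in CD122-T-bet- cells, 7.06% where these cells held 28.3% of all transcripts. In the TBGR mouse the CD122-T-bet- libraries had 0 and 4.03 CPM and the CD122+T-bet- libraries 11.6 and 13.0 CPM, with a log2 ratio of 2.30 (0.52 to 5.74), which is 1.97 above the all-gene median. It was between 1.32 and 3.61 when a library was left out, the lowest without the first CD122-T-bet- library. In the C-myc D/D Cd4 mouse the CD122-T-bet- libraries had 6.69 and 2.14 CPM and the CD122+T-bet- libraries 12.7 and 27.4 CPM, with no overlap and a log2 ratio of 2.24 (0.60 to 4.85). The C-myc fl/fl mouse had 1 against 6 *Nfil3* transcripts, and the CD122+ cells were above in 3 of 4 libraries, the fourth having none in either gate. Markers of CD4+CD8+ double positive thymocytes (8 genes, *Rag1* and *Cd8b1* among them) moved against *Nfil3*, from a summed 717 to 114 CPM in the TBGR mouse, 367 to 40.9 CPM in the C-myc fl/fl mouse and 756 to 128 CPM in the C-myc D/D Cd4 mouse. All 8 were detected in the CD122-T-bet- cells of each mouse and 6, 5 and 6 in the CD122+T-bet- cells, with *Rag2* at 0 there in all 3, and their part in the *Nfil3* values was not tested.

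Among the CD122+ gates of the TBGR mouse the int libraries were lowest in *Nfil3*, at 4.55 and 7.91 CPM, and the high libraries had 8.49 and 21.4 CPM. The int libraries overlapped neither the high nor the CD122+T-bet- libraries, but both log2 ratios had intervals that spanned 0, -0.94 (-2.40 to 0.29) for int over CD122+T-bet- and 1.04 (-0.50 to 2.62) for high over int. In C-myc fl/fl libraries the high cells were above the int cells in 3 of 4, with overlap between libraries and a pooled log2 ratio of 1.15 (-0.14 to 2.63). The highest library value was 40.3 CPM, in C-myc fl/fl CD122+T-bet high cells. In the 65 CD122+ cells with *Nfil3*, 2 of 20 measured T-bet-linked genes were 2-fold higher and 1 lower, beside 4.84% and 12.4% of 12610 genes.

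*Zbtb16* (chromosome 9, 48654297 to 48836222, minus strand) was nearly as frequent as *Tbx21*, with 228 transcripts in 135 cells, but had another order. The TBGR libraries had 12.4 and 0 CPM in CD122-T-bet- cells, 37.4 and 8.65 CPM in CD122+T-bet- cells, 33.3 and 60.1 CPM in int cells and 31.8 and 21.4 CPM in high cells. The CD122-T-bet- and CD122+T-bet- libraries overlapped, and so did the CD122+T-bet- and int libraries, while the int libraries lay just above the high ones. The C-myc fl/fl CD122-T-bet- cells had 0, 4.65, 8.90 and 6.10 CPM and the CD122+T-bet- cells of the same libraries 59.9, 26.7, 27.1 and 53.0 CPM. These did not overlap, with a log2 ratio of 2.86 (1.499 to 4.97) that lay 2.23 above the all-gene median and was 2.12 without the first library. Between the same cells the double positive markers went from 367 to 40.9 CPM and *Trdc* from 139 to 9.24 CPM, and their part in the *Zbtb16* ratio was not tested. The int cells had 64.3, 60.3, 18.7 and 38.0 CPM and the high cells 15.1, 10.02, 16.5 and 25.03 CPM, lower in 4 of 4 libraries, with a log2 ratio of -1.60 (-2.76 to -0.67). In the TBGR mouse the same ratio was -0.69 (-1.52 to 0.04).

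The genes most like *Zbtb16* over the 28 points were *Lgals3* (r of 0.73), *Nt5e* (0.72), which encodes CD73, *Rab8a* (0.72), *Ide* (0.71) and *Chn2* (0.70). None of these was among the first 5 by rank correlation, and 2 were in the C-myc fl/fl points alone, so the choice of these genes did not hold.

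Cells with and without *Zbtb16* were then set against each other inside each library and gate, in the CD122+ gates T-bet- and int of the TBGR and C-myc fl/fl mice. The 86 cells with a transcript had a median of 9297 transcripts and the 509 others 6247. In a list of 12 genes linked to PLZF and NKT cells, 6 were 2-fold higher and 1 lower in cells with *Zbtb16*, with a list median log2 ratio of 1.27. Of 11689 genes with at least 10 transcripts, 5.36% were higher and 9.44% lower, with a median of 0.01. *Il13* (37 against 3 transcripts, log2 ratio 5.81) and *Il4* (44 against 12, ratio 3.53) led, followed by *Icos* (1.86), a T cell co-stimulator, *Il17rb* (1.80), *Rora* (1.78) and *Plac8* (1.67). *Slamf1*, a receptor used in NKT cell selection, was lower (1 against 38 transcripts, -3.16), and *Cxcr6*, *Klrb1c*, *Sh2d1a*, *Egr2* and *Slamf6* were between -0.33 and 0.86.

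One TBGR CD122+T-bet int cell held 27 of the *Il13* and 21 of the *Il4* transcripts, with 4 of *Zbtb16*. Without it *Il13* was at 10 against 3 (4.04) and *Il4* at 23 against 12 (2.66), and 6 of 12 list genes were again 2-fold higher. A count of 6 also came from cells of at least 5000 transcripts, where the medians were 10014.5 and 7566.5, and from the TBGR mouse alone. In the C-myc fl/fl mouse alone it was 7 of the 10 genes with enough transcripts, but other genes were among them: *Plac8* was at 0.87, *Il13* (3.49) had 6 transcripts and was not counted, while *Klrb1c* (1.93), *Sh2d1a* (1.30) and *Egr2* (1.29) entered. All of these comparisons of cells were added after the data were seen. *Icos* was higher in 9 of 12 units and *Rora* in 9 of 12, so the direction was not shared by every library. *Il13* was higher in 6 of 12 and *Il4* in 7 of 12. They were found in only 8 and 14 of the 86 cells with *Zbtb16*. *Tbx21* had a ratio of -0.17 and *Eomes* of -0.31 between these cells.

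**Figure D4:**
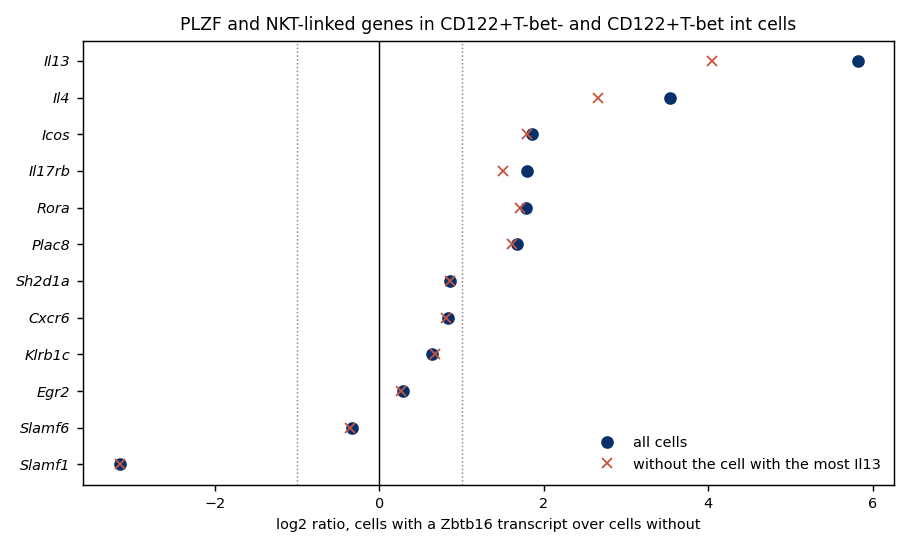
Log2 ratio (x axis) of the 12 PLZF and NKT-linked genes (y axis) between cells with and without a *Zbtb16* transcript, inside each library and gate, for T-bet- and int cells (both CD122+) of the TBGR and C-myc fl/fl mice. Dots use all cells and crosses leave out the cell with 27 *Il13* transcripts, and dotted lines mark 2-fold. In both versions 6 genes lie above 2-fold and *Slamf1* lies below.

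A difference was counted where a member had at least 10 transcripts in either population, changed 2-fold or more and had libraries that did not overlap. Of the 6 members, 4 had that depth in CD122- against CD122+ cells of the TBGR mouse, both T-bet-, and 1 was higher in the latter (*Nfil3*) and 0 lower, beside 16.2% and 4.53% of 10008 genes. From the CD122+T-bet- to the int gate, 5 had it, 2 were higher (*Tbx21*, *Eomes*) and 1 lower (*Zeb2*), beside 4.05% and 8.75% of 10067 genes. From int to high, 3 had it, and *Tbx21* was higher and *Eomes* lower, beside 8.45% and 13.5% of 9329 genes. Of the C-myc fl/fl cells 1 of 1 member with that depth (*Zbtb16*) was higher in CD122+T-bet- than CD122-T-bet- cells, beside 5.49% higher and 1.34% lower of 7667 genes. There 1 of 4 (*Tbx21*) was higher in high than int cells, beside 1.5% higher and 2.8% lower of 7602 genes. In the C-myc D/D Cd4 mouse 1 of 2 (*Nfil3*) was higher in CD122+T-bet- cells, beside 15.4% higher and 8.92% lower of 8320 genes.

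The members were compared between the C-myc D/D Cd4 and C-myc fl/fl mice in the T-bet- gates, the ones sorted from both 2-week-old mice. Genotype, mouse and library differ together between them and cannot be told apart, so the values are no measure of the deletion alone. *Tbx21* had 1 transcript in 128 deleted CD122-T-bet- cells and 2 in 137 deleted CD122+T-bet- cells, against 0 and 5 in the C-myc fl/fl cells, so its log2 ratio in the CD122+T-bet- gate was -1.06 (-4.63 to 1.37). These gates exclude reporter-positive cells, and a difference in T-bet induction could not be read from them. *Zbtb16* had 12.7 and 19.9 CPM in the deleted CD122+T-bet- libraries, below all 4 C-myc fl/fl libraries, with a log2 ratio of -1.21 (-2.34 to -0.23). It was the 1 member of 2 with at least 10 transcripts that passed the count, beside 6.14% lower and 15.2% higher of 8186 genes. The ratio was -0.93 without the first deleted library and -0.89 without the first C-myc fl/fl library, both under 2-fold.

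In the CD122-T-bet- gate *Zbtb16* had 20.1 and 4.29 CPM after deletion, which overlapped the C-myc fl/fl values, and a log2 ratio of 0.999 (-0.82 to 3.26). Within the C-myc D/D Cd4 mouse the CD122+T-bet- cells were at 16.7 CPM and the CD122-T-bet- cells at 10.5 CPM, a log2 ratio of 0.65 (-0.73 to 2.18), and the libraries overlapped. *Nfil3* in CD122+T-bet- cells was 12.7 and 27.4 CPM after deletion and 9.22, 13.4, 4.51 and 0 CPM without, with overlap and a log2 ratio of 1.33 (-0.05 to 3.06). *Eomes* had 9.53 and 2.49 CPM in the deleted CD122+T-bet- libraries and 0 in all 4 C-myc fl/fl libraries, on 4 transcripts in 2 cells. *Zeb2* and *Prdm1* had intervals that spanned 0 in both gates. None of the members had 10 transcripts in the CD122-T-bet- gate of either 2-week-old mouse, so none entered that count, where 14.1% of 7740 genes were higher and 1.45% lower.

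The libraries of the deleted mouse also differed in other cells' markers. *Trdc*, a gene of γδ T cells, stood at 212 CPM in the deleted and 9.24 CPM in the C-myc fl/fl CD122+T-bet- cells, and at 346 and 139 CPM in the CD122-T-bet- cells. It was found in 23 of 137 and 5 of 122 CD122+T-bet- cells, and its part in the *Zbtb16* and *Nfil3* values was not tested. The 4 regulatory T cell genes summed to 191 CPM in the deleted and 81.9 CPM in the C-myc fl/fl CD122+T-bet- cells. They summed to 67.9 and 82.7 CPM in the CD122-T-bet- cells, and their part was not tested either. The study reports from CD1d tetramer staining that mice of this genotype have far fewer NKT cells. Summed over 7 NKT cell genes, *Zbtb16* and *Il4* among them, deleted CD122+T-bet- cells had 343 CPM and C-myc fl/fl ones 440 CPM. In CD122-T-bet- cells it was 223 and 139 CPM. *Il4* had 1 and 6 transcripts in the CD122+T-bet- cells. The part of NKT cells in the *Zbtb16* values was not tested.

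In the other comparisons the lists moved as follows. In CD122+ against CD122- cells of the T-bet- gates, T-bet-linked genes were higher in 2 of 4 (TBGR), 1 of 3 (C-myc fl/fl) and 4 of 5 (C-myc D/D Cd4) and lower in 1 each time, *Gzma*. *Nkg7*, a gene of cytotoxic granules, rose in the TBGR mouse (log2 ratio 2.82) and in the deleted mouse (4.202), and *Il2rb* is the gene of the gate itself. Beside these, 11.1%, 8.09% and 16.7% of genes with at least 100 transcripts were higher and 2.6%, 1.16% and 10.2% lower. The effector and memory factors were higher in 5 of 17, 4 of 10 and 7 of 14 and lower in 2, 0 and 1, with *Runx3*, a factor of cytotoxic T cells, higher in all 3 mice (1.16, 1.49 and 2.39). The part of the double positive markers, lower in CD122+ cells of each mouse as given for *Nfil3*, in these list counts was not tested. The PLZF-linked list had 4, 1 and 2 genes of that depth, with 2, 0 and 0 higher and 0, 0 and 1 lower. Between the CD122+T-bet- and int gates of the TBGR mouse, 4 of 6 T-bet-linked genes were higher, led by *Klrd1* (7.07) and *Ccl5* (4.93), and 0 lower, beside 2.42% higher and 2.78% lower of 2807 genes. The factors then had 1 higher (*Id2*, 1.22) and 1 lower (*Myb*, -1.20) of 16, and the PLZF-linked genes 1 higher (*Cxcr6*, 1.32) and 1 lower (*Egr2*, -1.47) of 5.

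From int to high, 2 of 5 PLZF-linked genes were higher and 2 lower in the TBGR mouse, beside 4.82% and 11.1% of 2387 genes, and 0 of 2 higher and 1 lower in the C-myc fl/fl mouse, beside 2.89% and 2.17% of 1108 genes, *Plac8* being lower in both (-1.26 and -3.56). In deleted over C-myc fl/fl CD122+T-bet- cells, 7 of 13 factors were higher and 0 lower, beside 14.7% higher and 12.8% lower of 1147 genes. *Bach2* (1.55), *Foxp1* (1.42) and *Id2* (1.401) led. T-bet-linked genes had 1 of 5 higher (*Nkg7*, 2.08) and PLZF-linked genes 1 of 2 (*Slamf6*, 1.30). In CD122-T-bet- cells 3 of 8 factors (*Gata3*, *Tox* and *Myb*), 0 of 1 T-bet-linked and 1 of 1 PLZF-linked genes (*Sh2d1a*) were higher and none lower, beside 14.7% higher and 0.649% lower of 924 genes.

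Few cells held transcripts of more than 1 member. Of 1413 cells, 1006 held none of the 6, 348 held 1, 54 held 2 and 5 held 3. *Tbx21* and *Zbtb16* were found together in 25 cells, the most of any pair, with a median of 8524 transcripts per cell. *Tbx21* and *Nfil3* shared 8 cells, *Zbtb16* shared 7 each with *Zeb2* and *Nfil3*, and *Tbx21* and *Prdm1* shared 4. *Tbx21* and *Eomes* shared 2 of 155 and 33 cells, and *Eomes* and *Prdm1* none. At a few transcripts per cell a missing transcript is common, so these counts are lower bounds on cells with both.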

How the data were processed

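The 6 members and all gene lists were chosen with earlier results of these data known. Per the study's methods and the submitters' processing notes, the authors demultiplexed with bcl2fastq 2.17.1.14, aligned reads with BWA 0.6.2-r126 to GENCODE VM9 transcripts in sense direction, merged loci that overlapped by more than 75%, dropped reads with several best matches, and turned UMIs of 6 bases into transcript numbers. The deposited values are estimated counts of transcripts per well, corrected for UMIs that repeat by chance among 4096 possible ones, and were rounded to whole numbers here. The sorted population of each well comes from the deposited well lists. Cells with at least 2000 transcripts without mitochondrial genes and ERCC spike-ins were kept. Transcripts were summed per library and population and scaled to their total (CPM). Depth was 233454 to 775264 transcripts per library. Log2 ratios added 0.5 transcripts to each sum, with exact conditional 95% intervals, and levels have exact Poisson ones. A difference was counted when it was 2-fold or more with no overlap of libraries. No test was made, since 1 mouse stands for each genotype. Named genes were the members, *Myc*, the 5 genes most like a member with at least 100 transcripts, and up to 4 list genes per direction and comparison. Comparisons of cells with and without a member, pooled over libraries and gates by Mantel-Haenszel weights, were added after the data were seen. An item of the gene lists is not reported here. The counting was tested on simulated data for genes of at least 100 transcripts, so that test does not cover the lower counts of most members. Work was done in python 3.11.15, numpy 2.4.6, scipy 1.17.1 and pandas 2.3.3.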

Additional observations from a re-analysis of the deposited data

Results flagged for a closer look

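*Zeb2* had 5 transcripts in barcodes to which no sorted cell was assigned, more than the 3 that a count of 0 allows, in 3 of 20 libraries, all from the TBGR T-bet- gates. Of the other members only *Tbx21* had any there, 1 transcript, and the others had 0 of 51080 transcripts, which allows up to 58.7 CPM. No library stood far from the other 3 of its group in the 7 sets of 4 C-myc fl/fl libraries with at least 10 transcripts of a member, where chance marks about 1 set in 20.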

How the results depend on the processing

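The 14 log2 ratios that rest on at least 20 transcripts were recomputed under 158 alternatives (another minimum of transcripts per cell, median-of-ratios scaling, every cell weighted alike, 1 transcript added, observed UMIs, each library left out). They stayed within the spread between libraries in 157, and no value that passed the count changed sign. The exception was *Tbx21* in high over int cells of the TBGR mouse, which was 0.46 to 2.15 when 1 library was left out, and the cause was not tested. The spread is the standard deviation between libraries. Where a gate has 2 libraries, leaving 1 out can rarely move a value past it, so staying within it says little there. Of the 34 ratios on fewer transcripts, 18 of 394 values moved by more than that spread. *Zbtb16* in CD122+ against CD122- cells of the T-bet- gates ranged widely when 1 library was left out, although these values counted as within the spread. It ranged from 0.50 to 4.59 in the TBGR mouse and from -0.32 to 1.70 in the C-myc D/D Cd4 mouse. Levels moved in 6 of 408 recomputations and shares of cells in 34 of 408. No cell exceeded 2% *Kcnq1ot1*, and cells of at least 3000 or 1000 transcripts numbered 1233 and 1616. No paired analysis was possible because replicate numbers were given in accession order and pair no samples, and the results come from no test. Where a C-myc fl/fl library holds both gates, the values of both are given per library in the report. Depth limits *Prdm1*, *Eomes* and *Zeb2* most, with 27, 48 and 56 transcripts in all cells.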
